A study of Mus musculus with 14 samples.

Results

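Kcnma1, Lrrc26, Ano7, Best2, P2ry4, Slc12a8, Slc12a2 and Chrnb4 are 8 of the 36536 genes counted in mouse intestinal libraries. They are channel, channel-subunit, transporter and receptor genes grouped as goblet ion channels and a nucleotide receptor from their levels in these libraries. Of these, Slc12a2 did not follow the goblet-cell markers in either tissue. Lrrc26 followed them only in part in colon, and Best2 had almost no counts in ileum. The 8 genes were found by giving symbols to the Ensembl gene IDs, and 8 of 8 had counts and passed the filter on low counts in both fits. Because the measured levels chose them, their values are given as a description, with no test on them.

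Goblet cells make the mucus of the gut, and the mucus granules are packed with calcium and unfold only where chloride, bicarbonate and water reach them. Secretory cells load chloride through a basolateral sodium-potassium-chloride cotransporter, release anions through apical channels and hold their membrane voltage with potassium channels. Nucleotides and acetylcholine are classical triggers of this secretion, acting through receptors that raise intracellular calcium.

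RNA was sequenced in 14 libraries of 6 groups, to ask which genes depend on ATOH1, a helix-loop-helix factor that drives the secretory lineage of the gut. GFP libraries (3 from colon, 3 from ileum) came from live, 7AAD-negative, GFP-positive cells sorted from crypts of Atoh1GFP/GFP mice, whose ATOH1 protein is fused to GFP. The sources used here do not state the age of these mice. KO libraries (2 per tissue) came from unsorted crypts of Atoh1 lox/lox; VilCreERT2 mice at 6 to 8 weeks of age. WT libraries (2 per tissue) came from unsorted crypts of their Atoh1 lox/WT; VilCreERT2 littermates, so the controls carry the same recombinase and 1 floxed allele. CreERT2 is driven by the Villin promoter, which is active along the gut epithelium, and it works only with an inducer. The sources used here do not state its dose or timing. Sorting, genotype and, where it differs, age cannot be told apart from cell type in comparisons of GFP with WT libraries. The labels do not say that libraries came from separate animals, so errors and p-values measure only the spread between these samples.

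Library gene totals were 7478418 to 12991891 counts in sorted cells and 8848660 to 10870416 counts in crypts. Mitochondrial ribosomal RNA took 30.02 to 44.88% of gene counts in sorted cells and 0.14 to 0.22% in crypts. This difference in library make-up also cannot be told apart from cell type in comparisons of GFP with WT libraries. Levels are CPM, gene counts scaled to a common library total after TMM scaling, which adjusts for a few genes taking much of a library, and values after ± are SD over 3 GFP, 2 KO or 2 WT libraries. Atoh1 itself matched the labels, at 295, 231 and 264 CPM in colon GFP cells, 5.20 and 5.90 CPM in colon KO crypts and 62.6 and 44.7 CPM in colon WT crypts. In ileum it stood at 195, 323 and 296 CPM in GFP cells, 1.02 and 0.526 CPM in KO crypts and 41.0 and 39.5 CPM in WT crypts. The sum of the 11 goblet-cell markers followed the label of the group. Of the 11, 9 were higher in GFP cells than in WT crypts of each tissue without overlap, and 1 was lower in colon. Of all genes, 32.5% in colon and 30.9% in ileum were higher there. All 11 were lower in KO crypts of both tissues without overlap, where 20.1% and 21.9% of all genes were lower. The summed level of the 11 markers averaged 68585 CPM in colon GFP cells, 1491 CPM in colon KO crypts and 10539 CPM in colon WT crypts. It averaged 89072, 351 and 8447 CPM in the ileum GFP, KO and WT groups. The ileum GFP libraries spread widely, at 43091 CPM in ileum GFP 1 and 119735 and 104391 CPM in ileum GFP 2 and 3. The sorted cells were not goblet cells alone, since 8 Paneth markers summed to 57607 to 82720 CPM in ileum GFP cells, against 10208 to 31935 CPM in ileum WT crypts. In colon GFP cells 6 deep crypt secretory markers summed to 16994 to 31196 CPM, against 1444 to 2311 CPM in colon WT crypts. Of cells that the gate should leave out, 11 immune markers summed to 14.8 to 162 CPM in colon GFP cells and 1728 to 2058 CPM in colon WT crypts, and to 260 to 750 and 688 to 2381 CPM in ileum GFP and WT. The 8 fibroblast and endothelium markers summed to 1.06 to 6.85 CPM in GFP cells and 34.3 to 103 CPM in WT crypts of both tissues. Of other ATOH1-dependent cells, 9 enteroendocrine markers summed to 20.8 to 64.6 CPM in GFP cells, 35.2 to 122 CPM in KO crypts and 161 to 187 CPM in WT crypts of both tissues. In ileum, where immune and tuft markers overlapped or spread widely between WT libraries (10 tuft markers at 26.8 and 373 CPM), their part in the results was not tested.

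Of the members, 7 were lower in KO crypts of both tissues without overlap, so the 250 bases upstream of their RefSeq starts (GRCm38.p6) were searched on both strands for CAGCTG and CAGATG, E-box forms that helix-loop-helix factors bind. Of the 8 members, 6 had an entry, with 8 starts in all, and 2 of the 8 starts held one of these motifs. That is near the background, since 25.5% of 32851 mouse promoters of the same length held either, 13% CAGCTG and 14.4% CAGATG. Slc12a8 has 3 starts, of which 1 held both motifs, with first bases 199 and 41 bases upstream, and the other two held neither. Chrnb4 held 1, at 14 bases upstream, in a window that overlaps an exon of GENCODE M21. A match is a description of the letters and not a binding site. This Slc12a8 window is shown because it carries both motifs, in capitals, and those of P2ry4 and Ano7 because these genes had the largest differences between ileum GFP cells and ileum WT crypts, and between ileum KO and ileum WT crypts, among the members with an entry. P2ry4 and Ano7 held neither motif.
Slc12a8, chr16:33517945-33518194, plus strand: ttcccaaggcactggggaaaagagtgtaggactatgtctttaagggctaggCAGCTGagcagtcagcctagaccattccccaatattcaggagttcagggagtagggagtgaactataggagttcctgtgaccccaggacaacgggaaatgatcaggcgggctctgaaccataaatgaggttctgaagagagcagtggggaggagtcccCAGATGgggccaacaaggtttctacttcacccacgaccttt
P2ry4, chrX:100594870-100595119, minus strand: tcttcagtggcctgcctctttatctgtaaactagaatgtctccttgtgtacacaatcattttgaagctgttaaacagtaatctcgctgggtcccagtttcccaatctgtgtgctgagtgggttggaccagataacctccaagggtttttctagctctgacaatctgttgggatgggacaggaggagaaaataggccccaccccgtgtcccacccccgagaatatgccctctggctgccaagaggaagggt
Ano7, chr1:93373646-93373895, plus strand: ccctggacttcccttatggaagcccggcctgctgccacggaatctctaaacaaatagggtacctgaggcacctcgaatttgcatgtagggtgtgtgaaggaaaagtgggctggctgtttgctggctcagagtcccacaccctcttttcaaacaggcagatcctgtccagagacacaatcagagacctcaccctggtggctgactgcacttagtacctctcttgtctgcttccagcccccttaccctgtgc

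Of the sorted libraries, 1 per tissue held more RNA of genes of the other region than its replicates. These genes were chosen on the WT crypts as those with at least 20 CPM in one region and at most 1% of that in the other, which gave 41 ileum and 32 colon genes. The 41 ileum genes summed to 3522 CPM in colon GFP 1, and to 195 and 166 CPM in colon GFP 2 and 3. The 32 colon genes summed to 48.8 CPM in ileum GFP 2, where 28 of them had a count. They summed to 27.2 and 19 CPM in ileum GFP 1 and 3, where 11 and 16 had one. Of the 48.8 CPM, 20.1 CPM were of the gene Ccn3, which had 0.17 and 1.71 CPM in ileum GFP 1 and 3. Ileum GFP 2 was also the deepest of the 3, at 11885359 counts, which bears on how many genes had a count. P2ry4 was high in colon GFP 1 and Best2 was counted in ileum GFP 2, so both genes are given below with and without these libraries.

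Among GFP cells and WT crypts of colon, 7 of the 8 members were higher in all 3 GFP libraries than in both WT libraries, and Slc12a2 overlapped. Of all 15274 genes, 32.5% were higher without overlap in that comparison. In ileum 7 of 8 were higher in GFP cells without overlap, against 30.9% of all genes, and Best2 overlapped. In colon KO crypts 7 of 8 were lower than in both WT libraries, against 20.1% of 14415 genes, and again Slc12a2 overlapped. In ileum KO crypts 8 of 8 were lower, against 21.9% of all genes. Nothing is read from these shares, since the same comparisons chose the members. The median log2 fold change over the 8 members was 2.07 in colon and 3.01 in ileum for GFP over WT, where the median over all genes was 0.01 and -0.06. It was -2.86 in colon and -3.59 in ileum for KO over WT, where the median over all genes was 0.01 in both. GFP and KO libraries are compared with the same WT libraries, so these results are not independent of each other. In bulk RNA fewer cells of a type and less RNA per cell cannot be told apart.

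**Figure D1:**
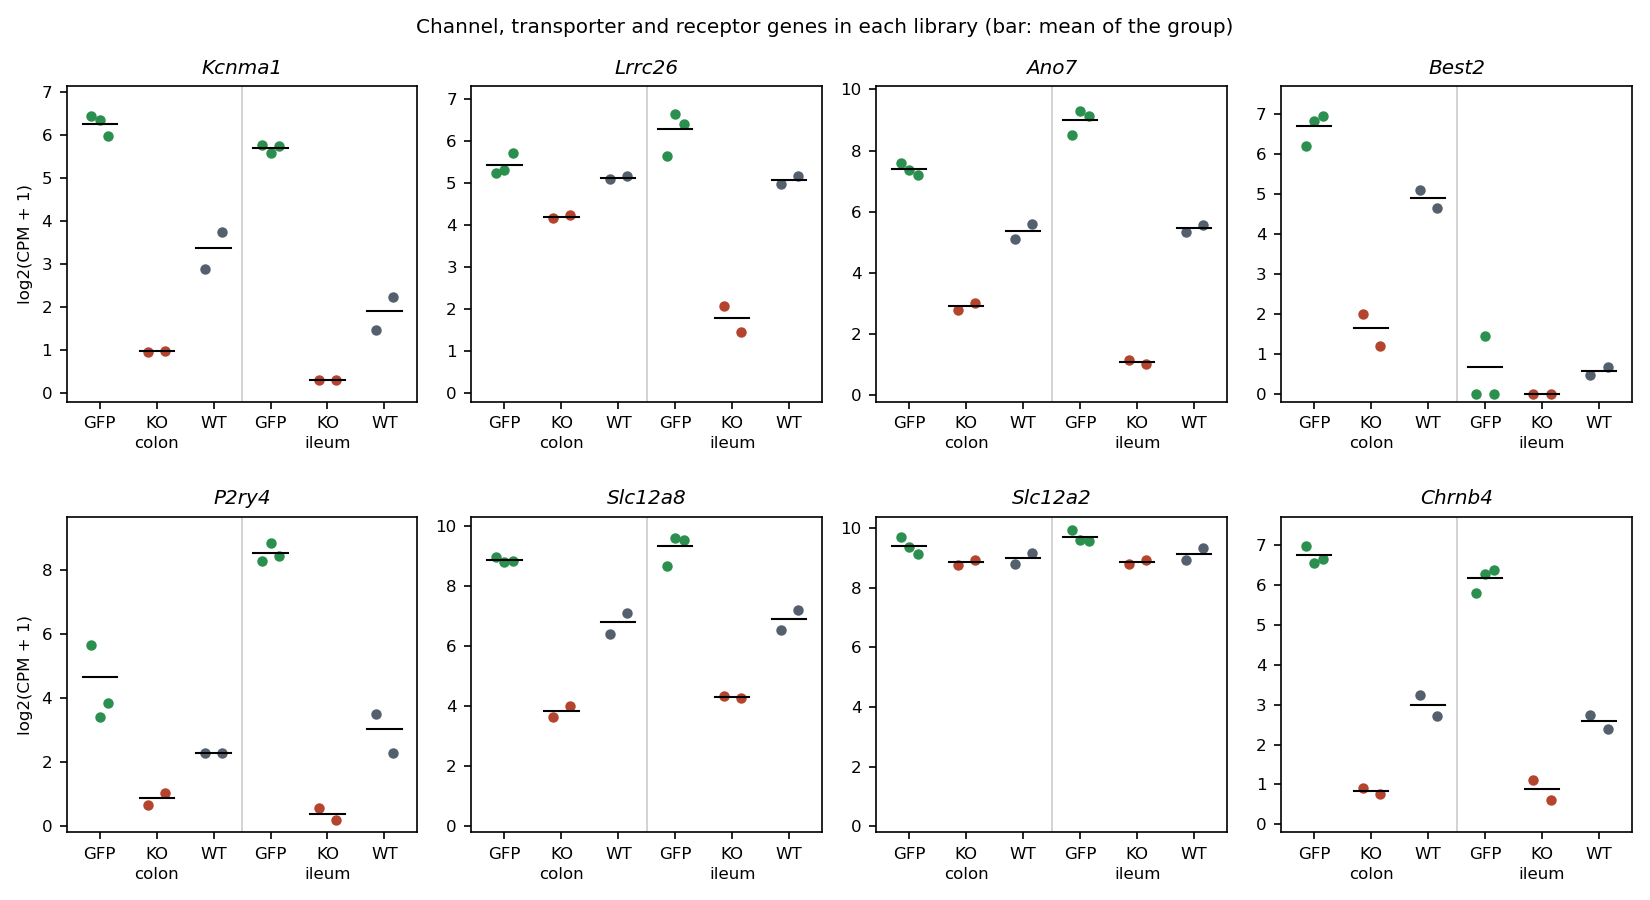
Levels of the 8 genes as log2(CPM + 1) in every library of colon and ileum GFP cells, KO crypts and WT crypts, with each point a library and each bar the group's mean. In colon, 7 genes have their GFP libraries above and their KO libraries below both WT libraries, whereas Slc12a2 stays between 437 and 971 CPM in all 14 libraries.

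Kcnma1 encodes the pore-forming subunit of the BK channel, a potassium channel opened by voltage and calcium. It stood at 85.8, 80.7 and 62.0 CPM in colon GFP cells, 0.939 and 0.983 CPM in colon KO crypts and 6.40 and 12.4 CPM in colon WT crypts. In ileum it stood at 53.6, 46.8 and 52.4 CPM in GFP cells, 0.234 and 0.226 CPM in KO crypts and 1.75 and 3.74 CPM in WT crypts. No groups overlapped within a tissue, and the ileum KO level rests on 6 counts over both libraries. The log2 fold change of GFP over WT was 3.01 in colon (SE 0.30) and 4.22 in ileum (SE 0.33), and that of KO over WT was -3.29 (SE 0.49) and -3.49 (SE 0.60). Without ileum WT 2 the ileum values were 4.84 for GFP and -2.83 for KO. Kcnma1 was the only member whose 6 groups could be put in order with no overlap between neighbours, with colon above ileum in each of GFP, WT and KO. Smooth muscle is rich in this subunit, and 8 smooth muscle markers summed to 21.2 to 23.6 CPM in colon GFP cells and 19.8 to 42.4 CPM in colon WT crypts, with 11.4 to 14.3 and 5.73 to 66.1 CPM in ileum GFP and WT.

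Lrrc26 encodes the gamma subunit that lets BK channels open at resting voltage and calcium. It was measured at 36.6, 39.1 and 51.7 CPM in colon GFP cells, 17.1 and 17.8 CPM in colon KO crypts and 33.4 and 34.8 CPM in colon WT crypts. The ileum libraries held 49.4, 99.8 and 83.7 CPM in GFP cells, 3.20 and 1.73 CPM in KO crypts and 30.5 and 35.1 CPM in WT crypts. Its levels in WT crypts overlapped between the tissues. The log2 fold change of KO over WT was -0.97 in colon (SE 0.20) and -3.70 in ileum (SE 0.24), a difference of 2.73 (SE 0.31). GFP over WT was 0.31 in colon (SE 0.26) and 1.25 in ileum (SE 0.27), the lowest colon value of the 8 genes. Set against the 11 goblet markers, Lrrc26 stood at 11.7 CPM per 1000 CPM of summed markers in both colon KO libraries, against 2.67 to 4.16 in colon WT crypts.

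The subunits of the channel changed by unequal amounts. Per kilobase of exon, the ratio of Kcnma1 to Lrrc26 was 0.0841 to 0.164 in colon GFP cells, 0.00385 to 0.00386 in colon KO crypts and 0.0134 to 0.0249 in colon WT crypts. In ileum it was 0.0329 to 0.0761 in GFP cells, 0.00513 to 0.00914 in KO crypts and 0.00403 to 0.00746 in WT crypts. The groups did not overlap in colon, and in ileum the KO and WT libraries did. The exon length used for Kcnma1, 17.0 kb over all its annotated isoforms against 1.19 kb for Lrrc26, lowers each of these ratios in the same proportion. The other BK auxiliary subunits on a list of 13 matched calcium-activated potassium channel genes were near 0. Kcnmb1, a beta subunit of smooth muscle, had 32 counts over all 14 libraries, Kcnmb2 18, Lrrc55 6, Lrrc38 5, Lrrc52 4 and Kcnmb4 0. Of that list 2 genes were tested, and Kcnn4, the intermediate-conductance channel of secretory epithelia, was lower in ileum GFP cells at 28.8 ± 3.49 CPM, against 76.9 ± 10.3 CPM in ileum WT crypts (2.67-fold, edgeR adjusted p = 0.000224). In colon Kcnn4 was not called (log2 fold change -0.43, edgeR adjusted p = 0.145).

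Ano7 is an anoctamin, of the family that holds calcium-activated chloride channels and lipid scramblases. It had 193, 163 and 147 CPM in colon GFP cells, 6.00 and 7.09 CPM in colon KO crypts and 33.7 and 47.8 CPM in colon WT crypts. In ileum there were 363, 629 and 556 CPM in GFP cells, 1.25 and 1.05 CPM in KO crypts and 39.4 and 46.4 CPM in WT crypts. WT crypts of the tissues overlapped, but sorted cells did not: colon GFP cells averaged 168 ± 23.1 CPM and ileum GFP cells 516 ± 138 CPM. GFP over WT was 2.04 on the log2 scale in colon (SE 0.24) and 3.59 in ileum (SE 0.26). KO over WT was -2.65 in colon (SE 0.21) and -5.18 in ileum (SE 0.26), so the change was larger in ileum in both directions. The medians of the 11 goblet markers did the same, at 1.60 and 2.72 for GFP and -2.77 and -4.61 for KO. Per 1000 CPM of summed goblet markers, Ano7 stood at 2.15 to 2.68, 4.11 to 4.66 and 3.66 to 4.2 CPM in colon GFP, KO and WT. In ileum it stood at 5.25 to 8.41, 2.47 to 5.34 and 4.43 to 5.8 CPM, and KO and WT overlapped in both tissues.

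Best2, a calcium-activated chloride and bicarbonate channel of mouse colonic goblet cells, had nearly all of its counts in colon. Its levels were 72.2, 111 and 122 CPM in colon GFP cells, 2.96 and 1.26 CPM in colon KO crypts and 33.1 and 24.1 CPM in colon WT crypts. GFP over WT was 1.83 (SE 0.50) and KO over WT -3.76 (SE 0.42), or -4.49 without colon KO 1. In ileum it had 0, 14 and 0 counts in GFP cells, 0 and 0 counts in KO crypts and 5 and 7 counts in WT crypts. Ileum KO crypts were at least 4.19-fold below ileum WT crypts at 0.481 ± 0.142 CPM, taking a floor of 3 counts over the group, or 0.115 CPM. With all libraries colon GFP cells had 153-fold the fitted level of ileum GFP cells. The 14 counts, 1.71 CPM, are in ileum GFP 2, and they equal 1.69% of the colon GFP mean, where the 32 colon genes had a median of 1.13%. Without that library Best2 had no count in ileum GFP cells, and colon GFP cells were at least 436-fold higher, taking a floor of 3 counts over the 2 libraries left (0.233 CPM).

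Of 11 matched anoctamins and bestrophins other than these, 6 were tested with GFP cells. In colon 1 was called higher and 4 lower, and in ileum 1 was called higher and 5 lower, where 45.9% and 52.8% of all genes were called. The gene called higher in each tissue was Best1, at 1.59 ± 0.212 CPM in colon GFP cells and 0.826 ± 0.383 CPM in ileum GFP cells. It passed the low-count filter only with the GFP libraries, where it is high, so nothing is read from its calls. The median log2 fold change of the list was -1.01 in colon and -1.27 in ileum. Ano6, a widely expressed scramblase, fell to 19.7 ± 6.23 CPM in ileum GFP cells, against 169 ± 76.5 CPM in ileum WT crypts (8.62-fold, edgeR adjusted p = 9.42e-07). In colon it fell to 15.2 ± 1.33 CPM in GFP cells, against 33.2 ± 4.25 CPM in WT crypts (2.19-fold, edgeR adjusted p = 0.00342). Ano8 fell 13.2-fold in colon GFP cells (edgeR adjusted p = 3.18e-06) and 10.5-fold in ileum GFP cells (edgeR adjusted p = 5.57e-06). Ano1, the apical calcium-activated chloride channel of many epithelia, was at 109 ± 5.86 CPM in colon GFP cells and 4.41 ± 0.849 CPM in ileum GFP cells (24.9-fold, edgeR adjusted p = 1.34e-05). In colon it was not called between GFP cells and WT crypts (log2 fold change -0.59, edgeR adjusted p = 0.207). None of the 5 tested in crypts was called in KO crypts of either tissue, and none had an unadjusted p under 0.05.

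**Figure D2:**
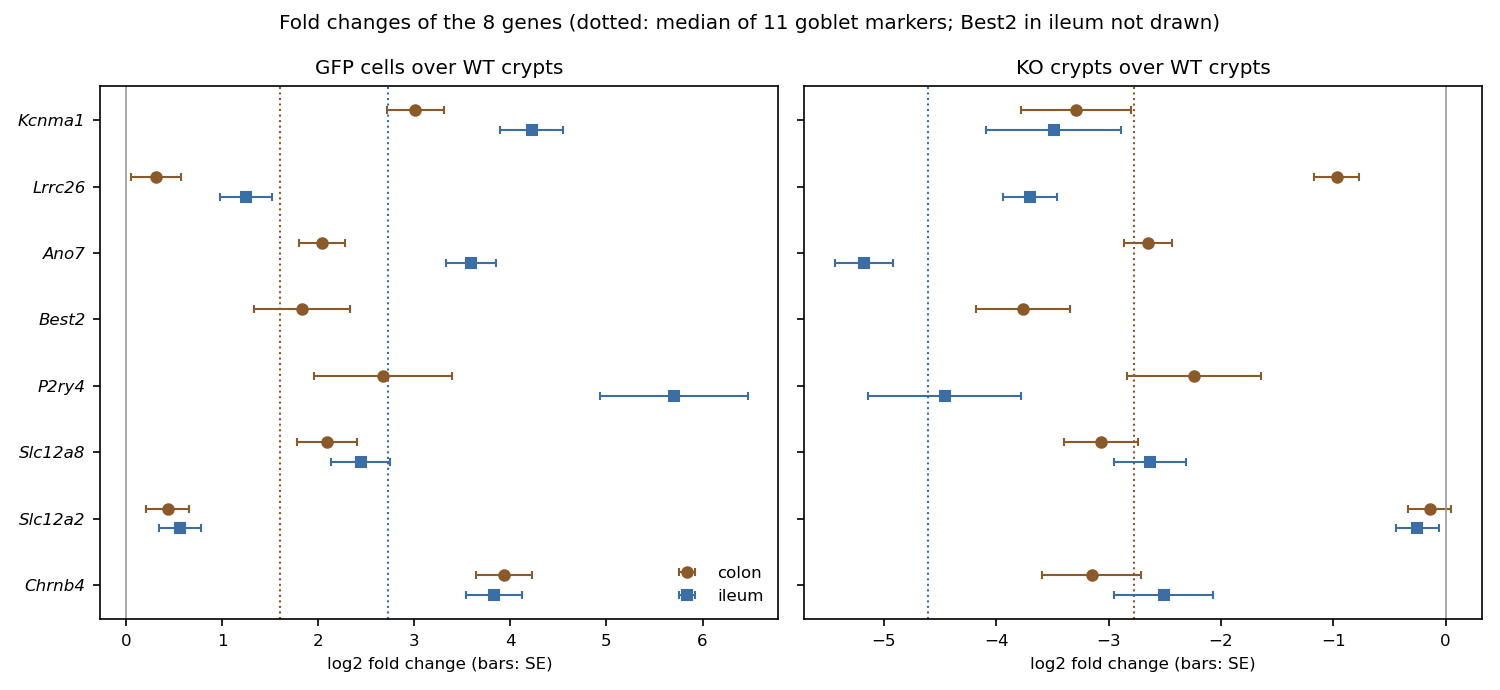
Log2 fold changes of the 8 genes, GFP cells over WT crypts at left and KO crypts over WT crypts at right, with circles for colon, squares for ileum and bars for the SE. Dotted lines give the median of the 11 goblet markers in the same comparison (1.60 and 2.72 for GFP, -2.77 and -4.61 for KO), and Slc12a2 lies nearest to 0 in KO crypts.

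P2ry4 encodes a G protein-coupled receptor for extracellular UTP. It was the member with the largest difference between ileum GFP cells and ileum WT crypts. Ileum GFP cells held 313, 457 and 350 CPM, ileum KO crypts 0.469 and 0.150 CPM and ileum WT crypts 10.4 and 3.91 CPM. In colon it was low, at 49.7, 9.71 and 13.4 CPM in GFP cells, 0.578 and 1.05 CPM in KO crypts and 3.89 and 3.83 CPM in WT crypts. GFP over WT was 5.70 on the log2 scale in ileum (SE 0.77) and 2.67 in colon (SE 0.72), and KO over WT was -4.46 in ileum (SE 0.68) and -2.24 in colon (SE 0.60). The ileum WT libraries differ 2.65-fold, and without ileum WT 1 the ileum P2ry4 values were 6.56 for GFP and -3.60 for KO. Leaving out ileum KO 1 or KO 2 gave -5.44 or -3.86 for KO.

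Colon GFP cells had a 15.2-fold lower P2ry4 level than ileum GFP cells in the fit (log2 fold change -3.92, SE 0.59). Colon GFP 1, the library with more RNA of ileum genes, had 13.3% of the ileum GFP mean of P2ry4, against 2.6 and 3.6% in colon GFP 2 and 3. The 41 ileum genes had medians of 8.15, 0.479 and 0.317% in these libraries. Without colon GFP 1 the log2 fold change of P2ry4 was -5.02 between colon and ileum GFP cells, and 1.58 for colon GFP over colon WT. The libraries then still did not overlap, since colon GFP 2 and 3 lay above both colon WT libraries.

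Ileum GFP cells also had more Paneth markers than ileum WT crypts, as given above, so the share of P2ry4 that belongs to goblet cells was not tested. Per 1000 CPM of summed goblet markers, P2ry4 stood at 3.36 to 7.27 CPM in ileum GFP cells, 0.763 to 0.927 CPM in ileum KO crypts and 0.487 to 1.17 CPM in ileum WT crypts. In colon that measure was 0.148 to 0.692 CPM in GFP cells, 0.396 to 0.692 CPM in KO crypts and 0.293 to 0.485 CPM in WT crypts, and the groups overlapped.

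**Figure D3:**
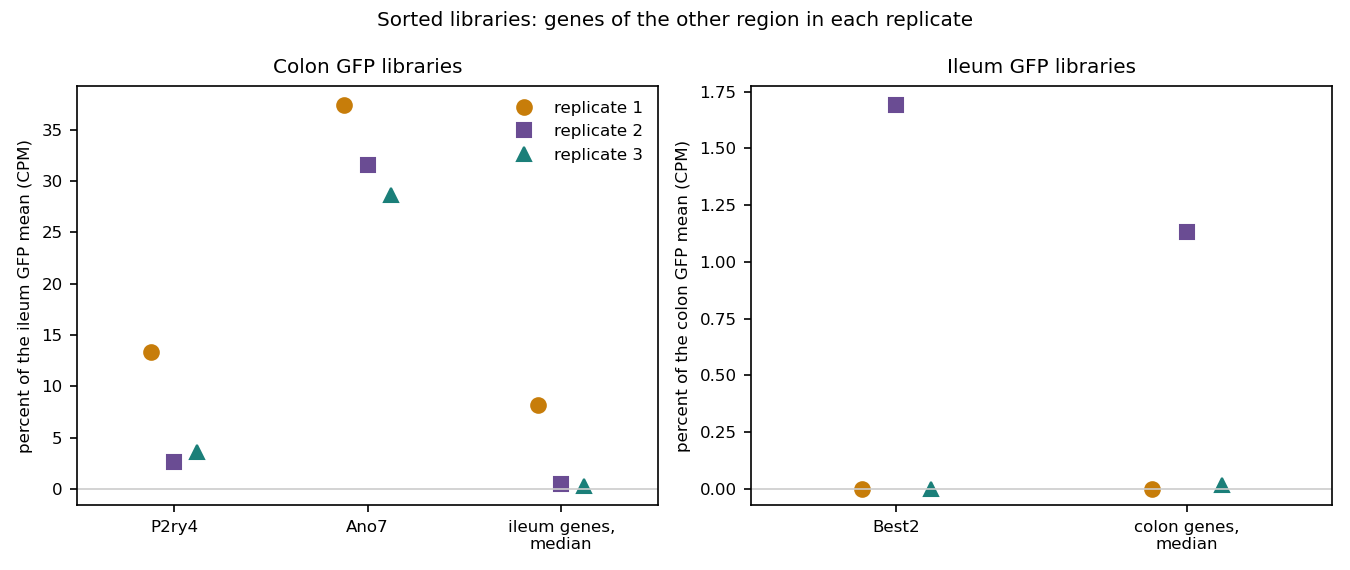
P2ry4, Ano7 and the median of 41 ileum genes in the 3 colon GFP libraries, in percent of the ileum GFP mean, and Best2 and the median of 32 colon genes in the 3 ileum GFP libraries, in percent of the colon GFP mean. Replicate 1 of colon holds the highest P2ry4 (13.3%) and replicate 2 of ileum the only Best2 (1.69%), and the same libraries have the highest medians of the other region's genes.

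Of 18 other purinergic receptors, 11 were tested with GFP cells. P2ry2, another receptor for UTP in gut epithelium, fell to 1.88 ± 0.331 CPM in colon GFP cells, against 26.3 ± 1.88 CPM in colon WT crypts (14-fold, edgeR adjusted p = 3.94e-07). In ileum it fell to 1.56 ± 0.325 CPM in GFP cells, against 24.0 ± 10.2 CPM in WT crypts (15.6-fold, edgeR adjusted p = 2.49e-07). P2rx4, an ATP-gated cation channel, rose to 366 CPM in colon GFP cells, against 110 CPM in colon WT crypts (3.31-fold, edgeR adjusted p = 0.000642). In ileum it rose to 294 ± 122 CPM in GFP cells, against 59.5 ± 13.8 CPM in WT crypts (4.94-fold, edgeR adjusted p = 6.6e-05). The list had 1 member called higher and 4 lower in colon GFP cells, and 3 higher and 2 lower in ileum GFP cells. That is no more than the 45.9% and 52.8% of all genes called there. Of the 3 higher in ileum, P2rx6 passed the low-count filter only with the GFP libraries, so nothing is read from its call. None of the 10 receptors tested in crypts was called in KO crypts, with 1 in colon and 2 in ileum at an unadjusted p under 0.05. P2rx4 had a log2 fold change of -0.70 in colon KO crypts (edgeR adjusted p = 0.417) and -0.93 in ileum KO crypts (edgeR adjusted p = 0.119).

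Among 14 genes of nucleotide release and breakdown, 1 was called higher and 4 lower in colon GFP cells, and 3 higher and 7 lower in ileum GFP cells, where 45.9% and 52.8% of all genes were called. Enpp1, an ectoenzyme that splits nucleotides, rose to 71.4 ± 4.07 CPM in colon GFP cells, against 15.7 ± 3.22 CPM in colon WT crypts (4.54-fold, edgeR adjusted p = 1.42e-05), and 5.44-fold in ileum GFP cells (edgeR adjusted p = 6.01e-06). Nt5e, the ectoenzyme that makes adenosine from AMP, fell 18.2-fold in colon GFP cells (edgeR adjusted p = 3.98e-05) and 10.9-fold in ileum GFP cells (edgeR adjusted p = 0.000726). In ileum KO crypts Slc17a9, the vesicular nucleotide transporter, fell to 6.95 ± 1.44 CPM, against 19.3 ± 5.07 CPM in ileum WT crypts (2.71-fold, edgeR adjusted p = 0.0459). Ada, which breaks down adenosine, rose to 134 ± 34.3 CPM in ileum KO crypts, against 48.2 ± 12.7 CPM in ileum WT crypts (2.84-fold, edgeR adjusted p = 0.0439). The 10 absorptive markers summed to 10674 to 11691 CPM in ileum KO crypts and 6798 to 7627 CPM in ileum WT crypts, and their part in the Ada value was not tested.

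Slc12a8 belongs to the cation-chloride cotransporter family and has been described in mouse intestine as a transporter of nicotinamide mononucleotide. It was present at 504, 451 and 456 CPM in colon GFP cells, 11.4 and 15.1 CPM in colon KO crypts and 84.8 and 136 CPM in colon WT crypts. Ileum held 407, 784 and 750 CPM in GFP cells, 19.1 and 18.4 CPM in KO crypts and 91.6 and 147 CPM in WT crypts. The tissues overlapped in GFP cells and in WT crypts. GFP over WT was 2.09 on the log2 scale in colon (SE 0.31) and 2.44 in ileum (SE 0.31), and KO over WT was -3.07 (SE 0.33) and -2.63 (SE 0.32). In ileum KO crypts it was less reduced than the goblet markers, at 37.9 to 93.5 CPM per 1000 CPM of summed markers, against 10.3 to 18.3 CPM in ileum WT crypts. This was not particular to Slc12a8. On that measure Chrnb4 was at 2.32 to 2.67 CPM in ileum KO and 0.529 to 0.643 CPM in ileum WT. Lrrc26 was at 6.34 to 8.78 and 3.43 to 4.39 CPM, and Slc12a2 is given below. Kcnma1, Ano7 and P2ry4 overlapped between ileum KO and WT, and Best2 had no count in ileum KO.

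Slc12a2 encodes the basolateral sodium-potassium-chloride cotransporter that loads secretory cells with chloride. It was high in all groups, at 829, 662 and 558 CPM in colon GFP cells, 437 and 490 CPM in colon KO crypts and 444 and 571 CPM in colon WT crypts. In ileum it was at 971, 777 and 767 CPM in GFP cells, 450 and 484 CPM in KO crypts and 488 and 646 CPM in WT crypts. Colon groups overlapped in both comparisons, and the ileum KO libraries lay just below the lower WT library. KO over WT was -0.14 in colon (SE 0.19) and -0.25 in ileum (SE 0.19), and GFP over WT was 0.43 (SE 0.22) and 0.56 (SE 0.22). Neighbouring groups in the order of its 6 means overlapped throughout. Per 1000 CPM of summed goblet markers it stood at 299 to 322 CPM in colon KO crypts and 43.7 to 55.3 CPM in colon WT crypts, and at 889 to 2456 and 54.9 to 80.6 CPM in ileum KO and WT.

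Of 13 other cation-chloride cotransporters and their regulatory kinases, 11 were tested with GFP cells, and 4 were called higher and 2 lower in each tissue, near the 45.9% of all genes called in colon and 52.8% in ileum. Stk39, the kinase that phosphorylates and activates the cotransporter encoded by Slc12a2, rose to 95.1 ± 12.9 CPM in colon GFP cells, against 46.1 ± 5.51 CPM in colon WT crypts (2.06-fold, edgeR adjusted p = 0.000686). Wnk3, of the kinase family upstream of it, is among the 4 called higher in each tissue. It passed the low-count filter only with the GFP libraries, where it is high, so nothing is read from its calls. Its level was 2.61 ± 1.35 CPM in colon GFP cells and 0.241 ± 0.148 CPM in colon WT crypts. In ileum Wnk3 was at 3.52 ± 1.86 CPM in GFP cells and 0.235 ± 0.0979 CPM in WT crypts. Slc12a7, a potassium-chloride cotransporter that carries chloride out of cells, fell 2.36-fold in colon GFP cells (edgeR adjusted p = 0.00011) and 3.35-fold in ileum GFP cells (edgeR adjusted p = 5.14e-06). None of the 9 tested in crypts was called in KO crypts, with 0 in colon and 3 in ileum at an unadjusted p under 0.05.

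Chrnb4 encodes a beta subunit of the nicotinic acetylcholine receptor, which forms a channel together with alpha subunits and is best known from autonomic ganglia. Colon libraries held 126, 92.8 and 98.9 CPM in GFP cells, 0.867 and 0.702 CPM in KO crypts and 8.48 and 5.54 CPM in WT crypts. Ileum libraries held 54.7, 76.0 and 81.9 CPM in GFP cells, 1.17 and 0.526 CPM in KO crypts and 5.71 and 4.24 CPM in WT crypts. Its difference between GFP cells and WT crypts was close in the tissues, at 3.93 on the log2 scale in colon (SE 0.29) and 3.83 in ileum (SE 0.29). KO over WT was -3.15 in colon (SE 0.44) and -2.51 in ileum (SE 0.44), or -3.18 in ileum without ileum KO 1. The partner alpha subunits were near 0, with 17 counts of Chrna3, 8 of Chrna5 and 34 of Chrna4 over all 14 libraries. The 9 enteric neuron and glia markers summed to 5.98 to 11.2 CPM in colon GFP cells and 4.24 to 5.67 CPM in colon WT crypts, and to 16.3 to 23.6 and 7.15 to 11.9 CPM in ileum GFP and WT. In GFP cells against WT crypts, 1 of the 9 was higher without overlap in colon and 2 in ileum, with 1 lower in ileum. Of all genes, 32.5% in colon and 30.9% in ileum were higher there. Only the glial marker Sox10 had no count in ileum KO crypts, and only the neuronal marker Uchl1 had none in ileum GFP cells. The part of such cells in the Chrnb4 values was not tested.

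Of 24 other cholinergic genes 9 were tested. In colon GFP cells 2 were called higher and 1 lower, and in ileum GFP cells 2 higher and 2 lower, below the 45.9% and 52.8% of all genes called. Chrna1, a muscle-type alpha subunit, rose to 8.69 ± 2.05 CPM in colon GFP cells, against 1.05 ± 0.258 CPM in colon WT crypts (8.13-fold, edgeR adjusted p = 0.000199). In ileum it rose to 7.25 ± 1.66 CPM in GFP cells, against 0.609 ± 0.431 CPM in WT crypts (11.9-fold, edgeR adjusted p = 7.32e-05). Chrm1, a muscarinic receptor that signals through calcium, rose to 50.3 ± 22.6 CPM in ileum GFP cells, against 10.2 ± 3.55 CPM in ileum WT crypts (4.95-fold, edgeR adjusted p = 0.00038). In colon it rose to 38.0 ± 6.87 CPM in GFP cells, against 12.5 ± 3.05 CPM in WT crypts (3.02-fold, edgeR adjusted p = 0.00467), a call lost without colon WT 1 (edgeR adjusted p = 0.0663). In ileum KO crypts Chrm1 fell to 0.691 ± 0.127 CPM, against 10.2 ± 3.55 CPM in ileum WT crypts (14.3-fold, edgeR adjusted p = 0.0138). In colon KO crypts it had a log2 fold change of -2.26 (edgeR adjusted p = 0.106).

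**Figure D4:**
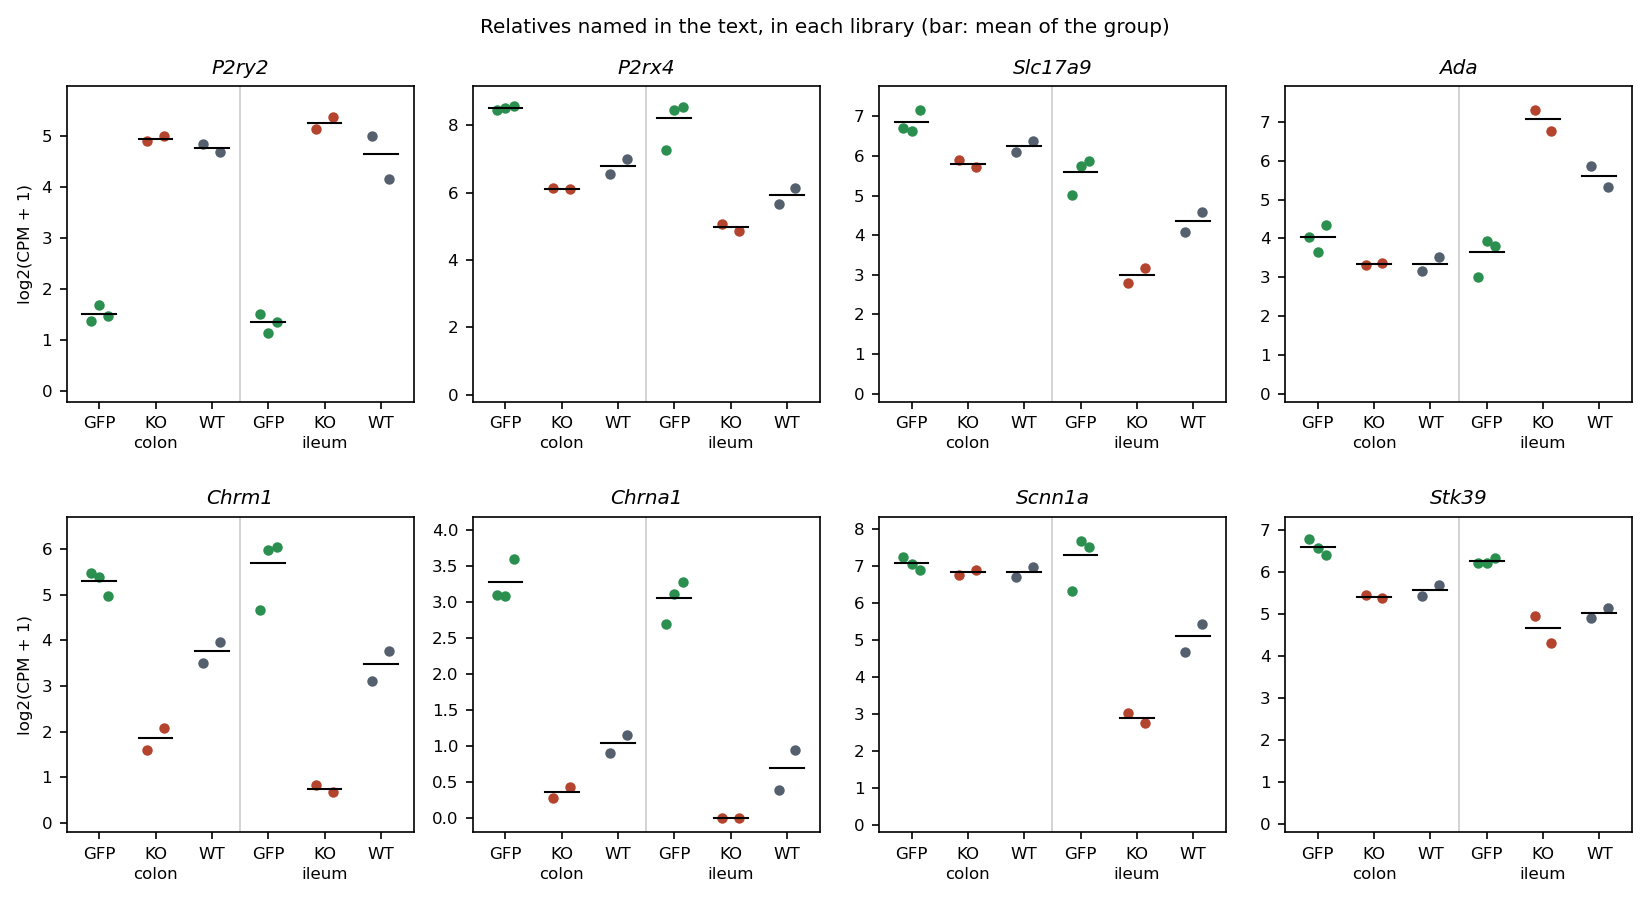
Levels of 8 relatives as log2(CPM + 1) in every library of GFP cells, KO crypts and WT crypts of colon and ileum, with each point a library and each bar the group's mean. P2ry2 is lowest in GFP cells of both tissues while P2rx4, Chrm1 and Chrna1 are highest there, and Ada is highest in ileum KO crypts.

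The widest list, 37 genes of epithelial anion and fluid transport, had more genes called lower than higher in sorted cells. In colon GFP cells 5 of 35 tested were called higher and 13 lower, and in ileum GFP cells 4 were called higher and 16 lower. These shares are close to the 45.9% and 52.8% of all genes called. Of the 5, Kcne2 passed the low-count filter only with the GFP libraries, so nothing is read from its call. The median log2 fold change of the list was -0.98 in colon and -1.17 in ileum. Aqp8, a water channel of surface colonocytes, fell to 2.81 ± 2.99 CPM in colon GFP cells, against 307 ± 130 CPM in colon WT crypts (117-fold, edgeR adjusted p = 9.35e-06). Slc26a6, an apical anion exchanger of the small intestine, fell to 2.01 ± 0.614 CPM in ileum GFP cells, against 133 ± 13.3 CPM in ileum WT crypts (67.4-fold, edgeR adjusted p = 1.18e-08). The 10 absorptive markers summed to 921 to 1444 CPM in colon GFP cells and 4298 to 10267 CPM in colon WT crypts, and to 1730 to 3109 and 6798 to 7627 CPM in ileum GFP and WT.

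In ileum KO crypts 2 of the list's 34 tested genes fell. Clca1, a secreted goblet-cell protein that processes mucus, fell to 54.7 ± 30.3 CPM in KO crypts, against 5065 ± 3644 CPM in WT crypts (90.8-fold, edgeR adjusted p = 0.0467). Scnn1a, the alpha subunit of the epithelial sodium channel, fell to 6.45 ± 0.933 CPM in KO crypts, against 33.2 ± 12.7 CPM in WT crypts (5.02-fold, edgeR adjusted p = 0.0248). Over all 7 lists of relatives, 5 of 83 genes were called in ileum KO crypts, where 1.22% of all genes were called, and 0 of 83 in colon KO crypts, where 0.153% were. In colon 12 of 83 had an unadjusted p under 0.05, against 7.69% of all genes. DESeq2 called 4 of 83 in colon, Clca1, Scnn1b, Chrm1 and Slc9a3, and over all genes it called 157, where edgeR called 22. In ileum 21 of 83 had an unadjusted p under 0.05, against 13.4% of all genes. The 5 ileum calls were lost when only ileum libraries were fitted and when either ileum KO library was left out, and those of Clca1, Slc17a9 and Ada also without ileum WT 2. The difference of the knockout effect between tissues was called for 0 of the 83 by edgeR and 2 by DESeq2, with 8 at an unadjusted p under 0.05. Of all genes edgeR called 0.00694%, and 3.91% had an unadjusted p under 0.05, while DESeq2 called 52 genes.

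The 8 genes divided by region. In colon GFP cells Kcnma1, Best2 and Chrnb4 were above ileum GFP cells without overlap, where 18.3% of all genes were, and Ano7 and P2ry4 were below without overlap, where 16.2% were. In colon WT crypts Kcnma1 and Best2 were above ileum WT crypts without overlap, against 28.6% of all genes, and P2ry4 was below, against 30.1%. Without ileum WT 1 the difference of P2ry4 between the WT groups was -0.01 on the log2 scale, against -0.87 (SE 0.53) with it, and without ileum WT 2 that of Kcnma1 was 2.45, against 1.79 (SE 0.45) with it. Lrrc26, Slc12a8 and Slc12a2 overlapped between the tissues in both comparisons. Between colon and ileum GFP cells 22.7% of all genes were called, and of 88 relatives tested 25 were higher and 13 lower in colon. Between colon and ileum WT crypts 19.9% of all genes were called, with 19 relatives higher and 13 lower in colon. The difference between GFP cells and WT crypts differed between the tissues for 7 relatives, where 2.19% of all genes were called.

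Across the 14 libraries the genes most like each member were found by Pearson's r of log2(CPM + 1) among 10065 genes with at least 10 CPM in a group. These r describe 6 groups more than 14 points and carry no test. Kcnma1 was closest to Piwil4 (r = 0.990), Zfp9 (0.987) and Arhgap24 (0.987), and Lrrc26 to Fer1l6 (0.979), Clca1 (0.967) and Rab27a (0.964). Ano7 was closest to Sytl2 (0.993), Cbfa2t3 (0.987) and Ccl9 (0.987), and Slc12a8 to Gfi1 (0.985), Car8 (0.979) and Fkbp11 (0.979). Best2 was closest to Pcdh17 (0.973), Scnn1b (0.967) and Fah (0.964), and P2ry4 to Kcnh6 (0.985), Id4 (0.979) and Grin1os (0.978). Chrnb4 was closest to Lyplal1 (0.985), Tspan13 (0.984) and Slc43a1 (0.983), and Slc12a2 to Utrn (0.969), Cog5 (0.959) and Nlk (0.958).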

How the data were processed

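The deposited files hold raw whole-number counts per Ensembl gene, 1 table per library. Per the submitters' processing notes, TopHat 1.4.1 and HTSeq made these counts on the mm9 build. The sources used here do not state the HTSeq version, annotation or strand setting, so antisense reads cannot be told apart; Kcnma1 has an opposite-strand transcript over its exons in GENCODE M21. Symbols (31004 of 36536 genes) and exon lengths came from GENCODE M21, a newer build, and promoters from RefSeq GRCm38.p6. HTSeq's special lines were left out; reads outside genes were 24.87 to 52.29% of uniquely placed reads in sorted cells and 9.3 to 13.25% in crypts.

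edgeR 4.0.16 in R 4.3.3 was used (TMM, filterByExpr by group, robust quasi-likelihood F-test, Benjamini-Hochberg over all genes, called at adjusted p under 0.05). Crypt comparisons used the 8 crypt libraries (14415 genes, with a biological coefficient of variation of 0.202). Those with GFP used all 14 (15274 genes, 0.232). The relatives Best1, Kcne2, Slc12a5, Wnk3 and P2rx6 passed the filter only with the GFP libraries, where their levels were highest, so nothing is read from their calls. The method was tested on simulated counts with a single spread for all genes. That setting is simpler than these libraries, whose replicates differed by unequal amounts. Alternatives were DESeq2 1.42.0, its size factors, library sizes that leave out genes over 1% of counts, no filter, a replicate block, other libraries in the fit and leaving out each library.

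The members and the 7 lists of relatives (130 matched genes) and 11 lists of markers were chosen with earlier results of these data known. Per list and comparison up to 4 called genes by fold change and up to 3 uncalled by CPM could be named; P2rx4 in colon GFP cells was named after its values were seen, and so were the genes that DESeq2 alone called and the BK and nicotinic subunits below the filter. Intervals and floors (3 counts) cover counting error only. Replicates differed by more than counting noise, and none were identical. The values of 1 relative are not reported here.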

Additional observations from a re-analysis of the deposited data

Results flagged for a closer look

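In 7 relatives the difference between GFP cells and WT crypts differed between colon and ileum by the interaction test of edgeR, among 88 relatives tested and 2.19% of all genes, and 6 of them are given. The value is the log2 fold change in colon minus that in ileum. It was 5.0 for Slc26a6, at 0.721 ± 0.548 CPM in colon GFP cells and 1.44 ± 0.293 CPM in colon WT crypts, and 2.01 ± 0.614 CPM in ileum GFP cells and 133 ± 13.3 CPM in ileum WT crypts (edgeR adjusted p = 0.00107). It was 2.79 for Ada, at 15.4 and 9.17 CPM in colon GFP and WT and 11.5 and 48.2 CPM in ileum GFP and WT (edgeR adjusted p = 0.00409). The water channel Aqp1 had 2.01 (edgeR adjusted p = 0.00197) and the scramblase Ano6 1.98 (edgeR adjusted p = 0.0147). Below 0 were Scnn1a at -1.98 (edgeR adjusted p = 0.0477) and the kinase Wnk4 at -1.54 (edgeR adjusted p = 0.0249). The calls of Ano6, Wnk4 and Scnn1a were lost without colon WT 1, those of Wnk4 and Scnn1a without colon WT 2, those of Wnk4 and Scnn1a without colon GFP 2 or ileum WT 1, and that of Scnn1a without colon GFP 1 or 3 or ileum GFP 2 or 3. The cause was not tested.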

How the results depend on the processing

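No called result changed direction under the alternatives run. The uncalled ileum GFP over WT value of Best2, 0.44 on the log2 scale, was -5.42 without ileum GFP 2, a fit against no counts that depends on the prior count. Members' log2 fold changes moved by more than the SD between replicates in 72 of 750 values, 45 of them when a WT library was left out. Some of those that moved by over 1.5 times stand beside the results. The GFP interaction of Best2 was 7.25 without ileum GFP 2, against 1.39. That of P2ry4 was -4.12 without colon GFP 1 and -3.90 without ileum WT 1, against -3.03. That of Kcnma1 was -1.86 without ileum WT 2, against -1.21. The KO interaction of P2ry4 was 1.37 without ileum WT 1 and 3.21 without ileum KO 1, against 2.22. For Kcnma1 the KO interaction was -0.46 without ileum WT 2, against 0.20. For Best2 it was 1.17 without colon KO 1, against 1.91, and for Chrnb4 0.03 without ileum KO 1, against -0.64.

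Counts called moved over all genes too, so these shifts are not particular to the relatives. Over all genes colon KO over WT gave 22 with edgeR, 56 with no filter, 157 with DESeq2 and 102 with colon libraries alone. Ileum KO over WT gave 176, 496 with DESeq2 and 4 with ileum libraries alone. The KO interaction gave 1 and 52 with DESeq2, and the GFP interaction 335, 1093 with no filter and 840 with DESeq2. Leaving out a library moved these counts too. Counts of relatives called moved as follows. Colon KO over WT gave 0 with edgeR, 1 with no filter, 4 with DESeq2, 2 with colon libraries alone and 0 with any library left out. Ileum KO over WT gave 5, 9 with DESeq2, 0 with ileum libraries alone and 0 to 28 with a library left out, the 28 without ileum WT 1 and the 0 without either KO library. The KO interaction gave 0, 2 with DESeq2 and 0 to 8 with a library left out, the 8 without ileum WT 1. The GFP interaction gave 7, 25 with no filter, 14 with DESeq2 and 3 to 11 with a library left out. With a library left out, colon GFP over WT gave 31 to 46 (42 with all), ileum GFP over WT 44 to 53 (52), colon over ileum GFP 24 to 34 (38) and colon over ileum WT 18 to 43 (32).

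Same-numbered replicates had r of deviations of -0.01 for colon KO and WT, 0.05 for ileum KO and WT, and 0.00, -0.12 and 0.09 for colon and ileum GFP. For colon and ileum of the same genotype it was 0.32 in WT and 0.36 in KO, which bears on colon over ileum WT and the KO interaction. The labels do not say what a number marks and these groups have 2 libraries each, so the numbers were not taken as pairs. With a replicate block the counts of relatives were 1 for colon KO (Chrm1), 5 for ileum KO and 0 for the KO interaction. They were 44 and 50 for colon and ileum GFP and 7 for the GFP interaction. Colon over ileum gave 34 for GFP and 33 for WT, and Clca1 lost its ileum call. Over all genes the block gave 30 for colon KO, 201 for ileum KO, 1 for the KO interaction and 352 for the GFP interaction.

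Depth limits Best2 in ileum and Kcnma1, P2ry4 and Chrnb4 in KO crypts, which rest on few counts.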
